A study of Mus musculus with 21 samples.

Results

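Mouse models of basal cell carcinoma (BCC), the skin cancer driven by Hedgehog signalling, were compared by bulk RNA sequencing of tail keratinocytes, and 3 genes picked because their difference between tumour and control was another one in the PKI model than in the others are described here: Nptx1, Slc15a2 and Gypc. They were taken by name from the 23713 genes of the deposited count table. Their differences between BCC and control (Con), and the differences of those effects between models, are what they were picked for, so these values are a description and carry no test. All 3 genes passed the filter on low counts in every comparison, Slc15a2 and Gypc in some of them only because of the group in which they were high.

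The 21 libraries fall into 6 groups, 3 Con and 4 BCC libraries in each of 3 models. Per the labels, the SmoM2 libraries were taken 29 days after tumour induction and form batch A, the Gnas-eKO libraries 42 days after and form batch B, and the PKI libraries 57 days after and form batch C. Batch, day and model therefore cannot be told apart, and Con is compared with BCC within a batch. SmoM2 is an active form of Smoothened, the transducer of the Hedgehog signal, and Gnas encodes the G protein subunit that raises cyclic AMP and activates protein kinase A, which restrains Hedgehog signalling. PKI is the usual name of a peptide inhibitor of protein kinase A. The labels do not describe the construct behind the PKI name, the promoter or Cre that drives each allele, what alleles the control mice carry, the strain or the age of the mice. In the file headers the names of the SmoM2 BCC animals begin with other letters than those of the SmoM2 Con animals, and what the letters stand for is not stated. The SmoM2 Con and all Gnas-eKO names share their letters, and all PKI names begin with others again. In SmoM2 the tumour, and between control groups the PKI model, therefore cannot be told apart from whatever the letters mark. The headers give each library an animal name of its own.

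Tail epidermis was separated with trypsin and dispase, so cells other than keratinocytes can be present, and in bulk RNA a change in the number of cells of a type and a change in RNA per cell cannot be told apart. All 8 keratinocyte markers had counts in every group, with a summed level of 26207 to 69196 CPM (counts scaled to the library's total with TMM normalization). The keratinocyte sum was lower in BCC than in Con without overlap in SmoM2 (33366 to 48746 against 49888 to 66602 CPM) and Gnas-eKO (26207 to 44824 against 51050 to 62668 CPM) and overlapped in PKI (41466 to 69196 against 46212 to 63512 CPM), and its part in the changes of the 3 genes was not tested. Single markers did not all follow the sum. By test 1 of 8 rose and 4 fell in SmoM2, where 16.2% of all genes rose and 13.5% fell. In PKI 1 rose and 3 fell (18.7% and 15.8% of all genes), and none was called in Gnas-eKO (1.63%). Trp63 stood at 916 to 1182 CPM in SmoM2 BCC against 711 to 744 CPM in SmoM2 Con. Mean Krt1 was 14425 CPM in PKI BCC against 4164 CPM in PKI Con. Total estimated counts were 16645858 to 22251132 per library, so 3 counts, the floor used below, correspond to 0.134 to 0.189 CPM. Gnas stood at 51.1 to 115 CPM in Gnas-eKO BCC and 172 to 178 CPM in Gnas-eKO Con, and Smo at 283 to 312 CPM in SmoM2 BCC and 93.7 to 111 CPM in SmoM2 Con, each without overlap. Smo was also higher in BCC without overlap in Gnas-eKO (149.8 to 234 against 106 to 113 CPM) and PKI (138 to 161 against 98.1 to 113 CPM), and Gnas in SmoM2 (285 to 311 against 181 to 193 CPM) and PKI (276 to 313 against 234 to 266 CPM). The summed level of 4 Hedgehog target genes (Gli1, Gli2, Ptch1, Hhip) was 54.0 to 115 CPM over the Con libraries, 1336 to 1761 CPM in SmoM2 BCC, 389 to 1349 CPM in Gnas-eKO BCC and 312 to 505 CPM in PKI BCC. Ptch1 made up most of this sum in every BCC library but Gnas-eKO BCC replicate 3, where Ptch1 was 315.3 and Gli1 281.3 of 701.8 CPM. Hhip stood at 1.7 to 52.1 CPM in PKI Con and 3.18 to 4.72 CPM in PKI BCC. Gnas-eKO BCC replicate 2 stood apart in Gli1, at 9.65 CPM. The other Gnas-eKO BCC libraries had 154 to 281 CPM and Gnas-eKO Con 4.75 to 9.96 CPM. Its sum was the lowest of its group, while its Ptch1 of 270.5 CPM was close to the 315.3 CPM of replicate 3. By the chi-square per degree of freedom between pairs of libraries, replicate 3 lay furthest from the others (117 to 186), against 81.8 to 186 for replicate 2. Without replicate 2, 11.8% of tested genes had an adjusted p under 0.05 between BCC and Con in Gnas-eKO (7.36% higher, 4.43% lower) in place of 1.63%. This was the most among fits that each left out 1 library, which called 0 to 1910 genes, so calls in this model depend on the libraries kept. The Gnas-eKO values of the 3 genes, and the calls of their listed relatives that changed, are therefore also given without replicate 2.

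Nptx1 encodes neuronal pentraxin 1, a secreted protein known from synapses, where pentraxins gather AMPA-type glutamate receptors. Slc15a2 encodes PEPT2, a proton-coupled carrier that takes up dipeptides and tripeptides, carnosine among them, and is best known from kidney and brain. Gypc encodes glycophorin C, a membrane protein that ties the spectrin skeleton to the red cell membrane through protein 4.1 and the scaffold Mpp1, and is also found in many other cell types. In the GRCm38 annotation Nptx1 (ENSMUSG00000025582.4) lies on chromosome 11 from 119538719 to 119547753 on the minus strand with 5217 bases of exon, and no other gene overlaps it. Slc15a2 (ENSMUSG00000022899.9) lies on chromosome 16 from 36750177 to 36784962 on the minus strand with 7361 bases of exon. The pseudogene Gm8425 lies within its span on the opposite strand, and whether counting used the strand is not stated, although Gm8425 itself averaged 0.219 CPM.

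The region just before the Slc15a2 start is shown because the level of this gene in control skin differed more between models than that of nearly every other gene. It covers chr16:36784963-36785212 of GRCm38.p6, is read on the minus strand from 5′ to 3′ and is taken from RefSeq.
Slc15a2: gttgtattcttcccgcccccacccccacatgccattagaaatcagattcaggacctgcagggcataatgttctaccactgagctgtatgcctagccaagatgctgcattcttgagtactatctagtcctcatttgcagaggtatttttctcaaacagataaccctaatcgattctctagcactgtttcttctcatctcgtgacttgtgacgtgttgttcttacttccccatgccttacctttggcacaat
Searched on both strands, these 250 bases held no exact match to the cyclic AMP response element TGACGTCA, the GLI site GACCACCCA or the AP-1 site TGANTCA, so no letters are in capitals. Of 32851 promoters of the same length, 1.546%, 0.225% and 6.749% held them.

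Nptx1 was low in the control skin of the SmoM2 and Gnas-eKO models and higher in that of PKI. The SmoM2 Con libraries stood at 4.23, 3.90 and 4.11 CPM, the Gnas-eKO Con libraries at 3.09, 1.96 and 3.58 CPM, and the PKI Con libraries at 14.0, 18.9 and 18.4 CPM. All PKI Con libraries were thus above all 6 other Con libraries. In tumour skin the order was another one. The SmoM2 BCC libraries stood at 58.2, 70.4, 36.3 and 49.9 CPM, above every other library of the series. The Gnas-eKO BCC libraries split, with replicates 2 and 4 at 19.0 and 14.1 CPM and replicates 1 and 3 at 2.17 and 2.57 CPM, inside the range of their controls. The PKI BCC libraries stood at 3.49, 3.82, 3.47 and 1.48 CPM, all below the PKI Con libraries and close to the controls of the other models.

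On the edgeR scale Nptx1 was 3.73 (SE 0.24) log2 units higher in BCC than in Con in SmoM2, 1.72 (SE 0.77) higher in Gnas-eKO and lower in PKI, at −2.46 (SE 0.28). Its effect in PKI differed from that in SmoM2 by −6.19 (SE 0.39) and from that in Gnas-eKO by −4.18 (SE 0.91), the 24th and 38th lowest of 17261 and 17254 genes. Without Gnas-eKO BCC replicate 2 the latter was −3.59. The Gnas-eKO value rests on few libraries, falling to 1.14 without BCC replicate 2, the library that stood apart in Gli1, and standing at 1.47 without BCC replicate 4. The 2 Gnas-eKO BCC libraries high in Nptx1 were replicates 2 and 4, while the highest Hedgehog target sums were those of replicates 1 and 4, at 1349, 389, 702 and 1177 CPM in replicates 1 to 4.

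**Figure D1:**
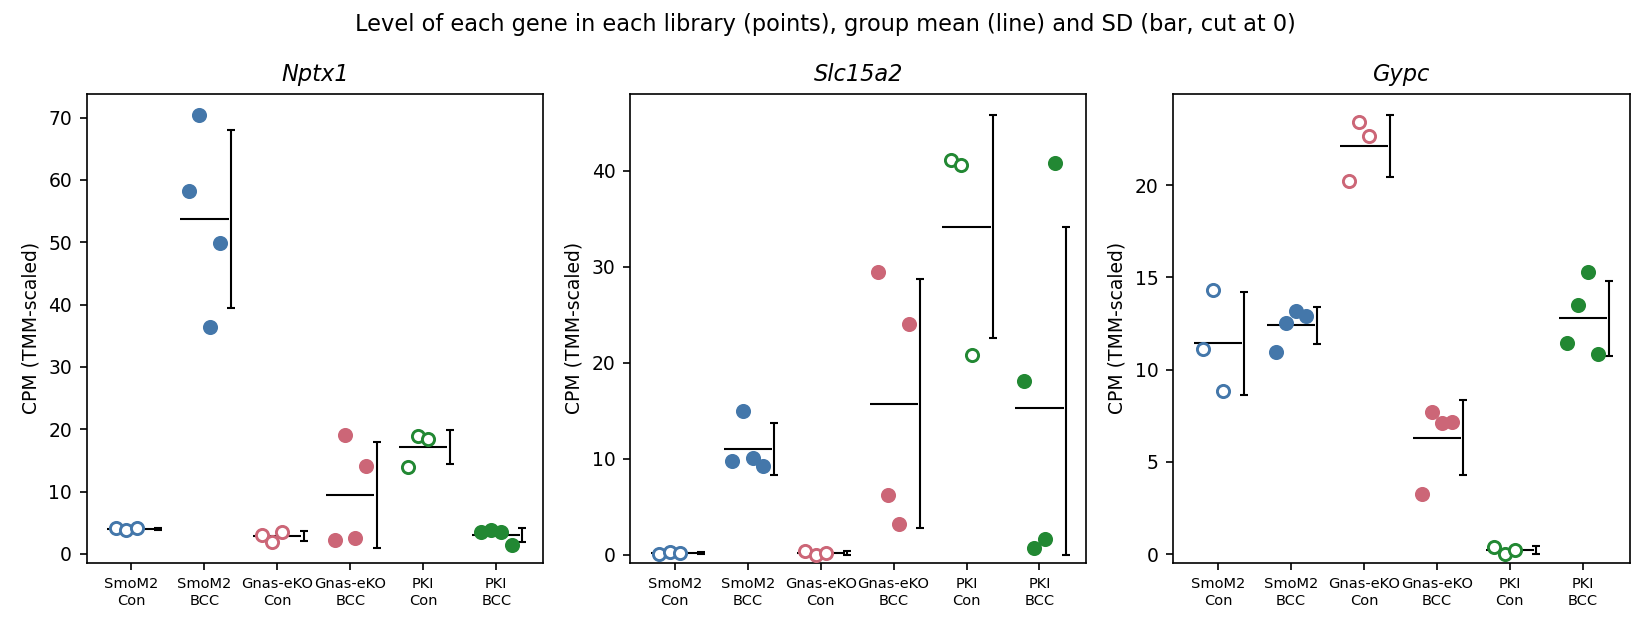
Level of Nptx1, Slc15a2 and Gypc in CPM (vertical axis, linear) in the 21 libraries by group; open points are Con and filled points BCC libraries, the line is the group mean and the bar its SD, drawn no lower than 0. Nptx1 is highest in SmoM2 BCC (36.3 to 70.4 CPM), Slc15a2 is near 0 in SmoM2 Con and Gnas-eKO Con but at 20.8 to 41.1 CPM in PKI Con, and Gypc is near 0 in PKI Con alone.

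Slc15a2 was almost silent in the control skin of SmoM2 and Gnas-eKO and clearly present in that of PKI. The SmoM2 Con libraries held 1, 5 and 3 counts (0.0459, 0.287 and 0.162 CPM) and the Gnas-eKO Con libraries 8, 0 and 4 counts (0.405, 0 and 0.204 CPM). The library without a count allows a level of up to 0.168 CPM. The PKI Con libraries held 811, 643 and 346 counts, or 41.1, 40.6 and 20.8 CPM. Mean CPM in PKI Con was 207 times that in SmoM2 Con and 168 times that in Gnas-eKO Con, and the denominators rest on 9 and 12 counts in all.

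In tumour skin the 3 models overlapped in Slc15a2. The SmoM2 BCC libraries stood at 9.77, 15.0, 10.1 and 9.27 CPM and the Gnas-eKO BCC libraries at 29.5, 6.27, 3.21 and 24.1 CPM, all above every control library of their own model. The PKI BCC libraries stood at 18.1, 0.723, 1.60 and 40.8 CPM. The lowest and highest of these 4 differed 56.5-fold, the widest spread within any BCC group among the 3 genes, and replicate 4 lay within the range of the PKI controls while the other 3 lay below it. The 2 Gnas-eKO BCC libraries high in Slc15a2, replicates 1 and 4, were also the 2 with the highest Hedgehog target sums. In PKI BCC the sums were 371, 312, 437 and 505 CPM in replicates 1 to 4, and replicate 3 stood above replicate 1 in the sum but below it in Slc15a2. With 4 libraries a group no relation was computed.

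The fitted change of Slc15a2 was 6.09 (SE 0.39) log2 units in SmoM2 and 6.21 (SE 1.10) in Gnas-eKO, the 13th highest of 16409 genes there and 6.48 without BCC replicate 2. In PKI it was −1.16 (SE 1.20). Leaving out PKI BCC replicate 4 took it to −2.33, and leaving out replicate 2 or replicate 3 to −0.77. The PKI effect differed from the SmoM2 effect by −7.25 (SE 1.92) and from the Gnas-eKO effect by −7.37 (SE 2.01), the 10th and 5th lowest of all genes, the latter −7.63 without Gnas-eKO BCC replicate 2. Since the Con counts of SmoM2 and Gnas-eKO were so few, these sizes depend on the small count that the fit adds to each library.

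Gypc showed the reverse picture, with a level at or near 0 in PKI controls and clear levels in all other groups. In GRCm38 the gene (ENSMUSG00000090523.2) lies on chromosome 18 from 32528322 to 32560034 on the minus strand with 2331 bases of exon and no overlapping gene. The SmoM2 Con libraries stood at 11.1, 14.3 and 8.82 CPM and the SmoM2 BCC libraries at 10.9, 12.6, 13.2 and 12.9 CPM, which overlap. The Gnas-eKO Con libraries stood at 20.2, 23.4 and 22.7 CPM, above every other library of the series, and the Gnas-eKO BCC libraries at 3.28, 7.72, 7.12 and 7.16 CPM. The PKI Con libraries held 8, 0 and 4 counts (0.405, 0 and 0.240 CPM), and the one without a count allows up to 0.189 CPM. The PKI BCC libraries stood at 11.5, 13.5, 15.3 and 10.9 CPM, within or next to the range of the SmoM2 libraries. Gypc was thus lower in every BCC library than in every Con library of Gnas-eKO and higher in every BCC library of PKI.

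The fitted change of Gypc was 0.13 (SE 0.17) in SmoM2, −1.80 (SE 0.27) in Gnas-eKO and 5.79 (SE 0.46) in PKI. The Gnas-eKO value was −1.91 without BCC replicate 2. In PKI it was 6.63 without Con replicate 1, the control library with 8 counts, and 5.27 without Con replicate 2, which had none. The PKI effect differed from the Gnas-eKO effect by 7.59 (SE 0.57), the 3rd highest of 17254 genes, and from the SmoM2 effect by 5.65 (SE 0.46). For Gypc the Gnas-eKO effect differed from the SmoM2 effect by −1.93 (SE 0.34), and no test of this is given. For Slc15a2 that difference was 0.13 with an SE of 1.74, too wide to show whether the 2 effects were alike. Without Gnas-eKO BCC replicate 2 the Gypc differences were 7.70 for PKI against Gnas-eKO and −2.05 for Gnas-eKO against SmoM2, and that of Slc15a2 was 0.39. Comparisons that pair a model with PKI share the PKI libraries, so their values are not independent of each other.

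As background, the share of tested genes with an adjusted p under 0.05 between BCC and Con was 29.7% for SmoM2, 1.63% for Gnas-eKO and 34.5% for PKI. The PKI effect differed from the SmoM2 effect in 24.9% of genes and from the Gnas-eKO effect in 9.06%, and the Gnas-eKO effect differed from the SmoM2 effect in 0.175%. Of 17695 genes, 37.1% had no overlap between BCC and Con libraries in SmoM2 (18.8% with BCC higher, 18.3% with BCC lower). In Gnas-eKO the share was 19% (9.86% higher, 9.18% lower) and for PKI it was 41.3% (21.3% higher, 20% lower). Since the genes were chosen on these contrasts, nothing is read from where they fall.

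**Figure D2:**
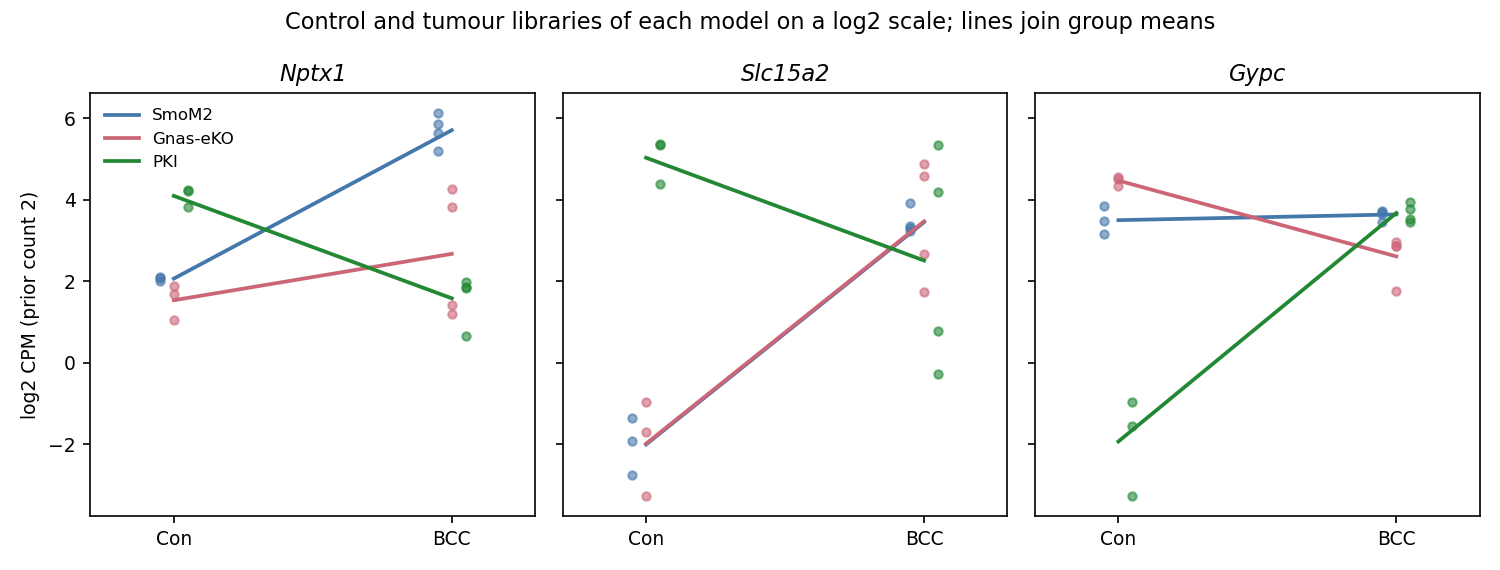
Log2 CPM (vertical axis, with 2 counts added) of the 3 genes in Con and BCC libraries; points are libraries and lines join the group means of each model. For Slc15a2 and Gypc the PKI line starts far from the other lines at Con and ends near them at BCC, while the Nptx1 lines of PKI and SmoM2 cross.

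The difference of effects between models was split into its control part and its tumour part, both as differences of mean log2 CPM with 2 counts added. For Slc15a2, PKI Con was above SmoM2 Con by 7.04 and above Gnas-eKO Con by 7.02. PKI BCC differed from SmoM2 BCC by −0.94 and from Gnas-eKO BCC by −0.96, with libraries that overlapped both groups and an SD of 2.69 in PKI BCC. The sign of these tumour differences depends on the scale, since mean CPM in PKI BCC was 1.39 times that in SmoM2 BCC and 0.97 times that in Gnas-eKO BCC. For Gypc, PKI Con differed from SmoM2 Con by −5.44 and from Gnas-eKO Con by −6.41, and PKI BCC differed from SmoM2 BCC by 0.03 and from Gnas-eKO BCC by 1.07. For both genes the larger part of the difference of effects thus lay in the control libraries. Nptx1 differed in both states, by 2.03 in Con and −4.13 in BCC against SmoM2, and by 2.56 in Con and −1.09 in BCC against Gnas-eKO.

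Among 17695 genes the Con difference of Slc15a2 was the 2nd highest against each of the other models, and that of Gypc was the 4th lowest against SmoM2 and the 3rd lowest against Gnas-eKO. The Con difference of Nptx1 was the 110th and the 74th highest. The median over all genes was −0.01 in both control comparisons. All 3 genes had PKI Con libraries that did not overlap with the Con libraries of either other model, which held for 9.51% of genes (4.68% with PKI higher, 4.83% with PKI lower). With 3 libraries against 3 an exact permutation test cannot go below p = 0.10, and the genes were chosen for their differing effects, so no test is given.

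Between the Con groups of the 2 other models, Slc15a2 overlapped, Nptx1 was lower in Gnas-eKO than in SmoM2, and Gypc was 1.93 times as high in Gnas-eKO as in SmoM2. The libraries of these groups did not overlap for Nptx1 and Gypc, as for 9.38% of genes. In tumour skin, PKI and SmoM2 libraries overlapped for Slc15a2 and Gypc and did not for Nptx1, as for 39.2% of genes. PKI and Gnas-eKO tumour libraries overlapped for Nptx1 and Slc15a2 and did not for Gypc, as for 23.4% of genes. Gnas-eKO BCC libraries were below all SmoM2 BCC libraries for Nptx1 and Gypc, where 8.32% of genes did not overlap, and overlapped for Slc15a2.

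**Figure D3:**
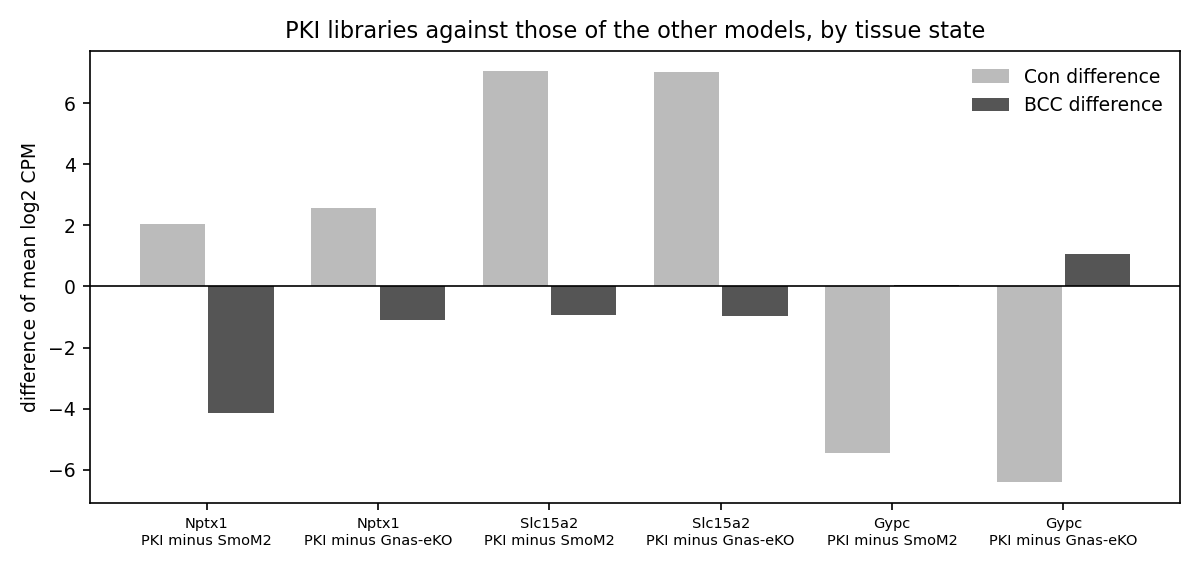
Difference of mean log2 CPM (vertical axis) between PKI and each other model, in Con libraries (light bars, 3 against 3) and BCC libraries (dark bars, 4 against 4); the bars carry no error. For Slc15a2 and Gypc the control bars reach 7.04 and −6.41 and are the longer ones in every pair, and for Nptx1 against SmoM2 the tumour bar, at −4.13, is the longer.

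Ordered by mean CPM, Nptx1 ran from SmoM2 BCC (53.7 ± 14.3, SD, n = 4) through PKI Con (17.1 ± 2.7, n = 3), Gnas-eKO BCC (9.46 ± 8.44, n = 4), SmoM2 Con (4.08 ± 0.165, n = 3) and PKI BCC (3.07 ± 1.07, n = 4) to Gnas-eKO Con (2.87 ± 0.832, n = 3). Neighbouring groups in this order overlapped except SmoM2 BCC with PKI Con and SmoM2 Con with PKI BCC. Slc15a2 ran from PKI Con (34.2 ± 11.6, n = 3) through Gnas-eKO BCC (15.8 ± 13.0, n = 4), PKI BCC (15.3 ± 18.8, n = 4) and SmoM2 BCC (11.0 ± 2.67, n = 4) to Gnas-eKO Con (0.203 ± 0.203, n = 3) and SmoM2 Con (0.165 ± 0.120, n = 3). Its only break between neighbours lay between SmoM2 BCC and Gnas-eKO Con. Gypc ran from Gnas-eKO Con (22.1 ± 1.67, n = 3) through PKI BCC (12.8 ± 2.03, n = 4), SmoM2 BCC (12.4 ± 1.00, n = 4), SmoM2 Con (11.4 ± 2.77, n = 3) and Gnas-eKO BCC (6.32 ± 2.05, n = 4) to PKI Con (0.215 ± 0.204, n = 3). The middle 3 of these groups overlapped from one to the next, and the others stood apart from their neighbours.

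Per length of exon the 3 genes can be set side by side as levels in mean CPM per kilobase. In PKI Con these were 4.64 for Slc15a2, 3.29 for Nptx1 and 0.0923 for Gypc. In SmoM2 Con the order was Gypc at 4.90, Nptx1 at 0.782 and Slc15a2 at 0.0224, and in Gnas-eKO Con it was the same, at 9.48, 0.551 and 0.0276. In SmoM2 BCC Nptx1 led at 10.3, followed by Gypc at 5.32 and Slc15a2 at 1.5. In PKI BCC Gypc led at 5.49, above Slc15a2 at 2.08 and Nptx1 at 0.588. In Gnas-eKO BCC the order was Gypc at 2.71, Slc15a2 at 2.14 and Nptx1 at 1.81, closer together than the SDs of the last 2, at 1.76 and 1.62.

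The tested relatives of Nptx1 had values of 1 sign each in all 3 models. Of 6 listed relatives 3 were in the count table and 2 could be tested, Nptx2, the closest relative and also a synaptic pentraxin, and Nptxr, the membrane-bound pentraxin receptor. Nptx2 rose in all 3 models, by 2.7 (SE 0.70, adjusted p = 0.0162, edgeR) in SmoM2, 2.66 (SE 0.52, adjusted p = 0.0484) in Gnas-eKO and 3.34 (SE 0.56, adjusted p = 0.00213) in PKI, where 16.2%, 1.46% and 18.7% of all genes rose. Its levels were low, with group means from 0.126 ± 0.111 CPM (SD, n = 3) in PKI Con to 1.58 ± 0.591 CPM (n = 4) in Gnas-eKO BCC. Without SmoM2 Con replicate 2 the SmoM2 change had an adjusted p of 0.0572. In Gnas-eKO the call held in 2 of 7 fits that each left out 1 library, those without BCC replicate 2 or 3, and the others had an adjusted p of 0.116 to 0.211. Nptxr fell in SmoM2 (−2.26, SE 0.18, adjusted p = 1.71e-05) and PKI (−1.91, SE 0.15, adjusted p = 9.01e-05) and stood at −2.54 (SE 0.50, adjusted p = 0.0503) in Gnas-eKO and −2.98 (adjusted p = 0.00711) there without BCC replicate 2, from control means of 17.4 to 22.6 CPM. No difference of their effects between models passed the test, with adjusted p from 0.302 to 0.995. Of the AMPA receptor subunits only Gria2 passed the filter, in SmoM2, where it rose by 2.42 (SE 0.70, adjusted p = 0.0274) at under 1 CPM, where leaving out Con replicate 1 or 2 gave an adjusted p of 0.0940 or 0.0812.

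Among the relatives of Slc15a2, 3 of 4 listed genes were measured and tested, and 1 rose and 1 fell in both SmoM2 and PKI while none passed the test in Gnas-eKO. Over all genes 16.2% rose and 13.5% fell in SmoM2, 18.7% and 15.8% in PKI, and 1.63% passed the test in Gnas-eKO. Slc15a3, a lysosomal carrier of histidine and peptides found in immune cells, rose by 1.64 (SE 0.38, adjusted p = 0.00934) in SmoM2 and by 2.58 (SE 0.25, adjusted p = 0.000213) in PKI. Its Gnas-eKO value was 1.69 (SE 0.58, adjusted p = 0.160), and 2.01 (adjusted p = 0.0148) without BCC replicate 2. Slc15a1, PEPT1, the intestinal peptide carrier, was measured at 20.0 to 27.0 CPM as group means in Con and fell in PKI only by test, to 13.9 ± 1.99 CPM (SD, n = 4), a change of −0.94 (SE 0.13, adjusted p = 0.000781). The PKI effect of Slc15a1 was lower than the SmoM2 effect by test (−0.95, SE 0.22, adjusted p = 0.00691) and lower than the Gnas-eKO effect (−1.13, SE 0.20, adjusted p = 0.00517). Slc15a4, a lysosomal relative, fell in SmoM2 (−0.44, SE 0.09, adjusted p = 0.00416), with an effect 0.58 (SE 0.16, adjusted p = 0.0167) higher in PKI than in SmoM2. Unlike Slc15a2, the 3 relatives had Con means within 1.5-fold of each other between models.

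Of 11 listed genes that handle dipeptides or sense the bacterial muramyl peptides that PEPT2 carries, 9 were tested in each model. In SmoM2 none rose and 2 fell, where 16.2% of all genes rose and 13.5% fell. In Gnas-eKO none passed the test, where 1.46% of all genes rose and 0.165% fell, and none without BCC replicate 2, where 7.36% rose and 4.43% fell. In PKI 2 rose and 2 fell, where 18.7% rose and 15.8% fell. The median change of the list was −0.20, −0.22 and 0.01, and that of all genes was within 0.04 of 0. In PKI, Dpep2, a membrane dipeptidase, rose by 1.45 (SE 0.31, adjusted p = 0.00694) and Slc9a3r1, a scaffold of membrane transporters, by 0.51 (SE 0.14, adjusted p = 0.0172; 0.0531 without BCC replicate 2 and 0.0693 without Con replicate 3). Pdzk1, another scaffold, fell by 1.22 (SE 0.39, adjusted p = 0.0355), a call that 2 of 7 leave-out fits kept, those without BCC replicate 1 or Con replicate 2, with an adjusted p of 0.0594 to 0.114 in the others and 0.133 in the fit over 21 libraries. Nod1, a sensor of bacterial peptides, fell by 0.34 (SE 0.08, adjusted p = 0.00875). In SmoM2, Slc9a3r1 fell by 0.72 (SE 0.18, adjusted p = 0.0160, and 0.0583 without Con replicate 2) and Nod1 by 0.34 (SE 0.10, adjusted p = 0.0321). The Nod1 value was at 0.0538 to 0.105 without BCC replicate 3 or 4 or Con replicate 2 or 3.

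Of 14 listed genes of the membrane skeleton around glycophorin C, 10 to 12 were tested in each model. In SmoM2 2 rose and 2 fell, where 16.2% of all genes rose and 13.5% fell. In Gnas-eKO none passed the test, where 1.63% of all genes did, and none without BCC replicate 2, where 11.8% did. In PKI 1 rose and 2 fell, where 18.7% of all genes rose and 15.8% fell. The list's median change was −0.13, −0.07 and −0.08. Mpp1, the scaffold that binds glycophorin C, fell in SmoM2 from 59.0 ± 1.87 CPM (SD, n = 3) to 34.9 ± 1.22 CPM (n = 4), a change of −0.74 (SE 0.07, adjusted p = 4.39e-05), and rose in PKI from 56.2 ± 0.902 CPM (n = 3) to 85.6 ± 11.4 CPM (n = 4), a change of 0.62 (SE 0.11, adjusted p = 0.00255). The difference of effects was 1.36 (SE 0.12, adjusted p = 8.5e-06) for PKI against SmoM2 and 0.98 (SE 0.20, adjusted p = 0.0109) for PKI against Gnas-eKO. For Mpp1 the difference lay in tumour skin, since its control means in the 3 models were 53.2 to 59.0 CPM, whereas the larger part of that of Gypc lay in control skin. Epb41, which encodes protein 4.1, was not called in any model.

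The other genes of this list passed the test as follows. Add3, an adducin, was at 0.30 (SE 0.07, adjusted p = 0.0123) in SmoM2 and −0.38 (SE 0.08, adjusted p = 0.00689) in PKI. Fitted over 21 libraries these had an adjusted p of 0.258 and 0.0881. Dmtn, an actin-binding protein, rose by 1.10 (SE 0.32, adjusted p = 0.0264) in SmoM2, a call that 2 of 7 leave-out fits kept, those without BCC replicate 3 or Con replicate 1, with an adjusted p of 0.0516 to 0.0891 in the others. Sptan1, a spectrin, fell in SmoM2 by 0.30 (SE 0.07, adjusted p = 0.0126), and Sptb, the red cell beta spectrin, fell in PKI by 1.20 (SE 0.32, adjusted p = 0.0171), with 0.0755 and 0.0564 without Con replicates 1 and 2.

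**Figure D4:**
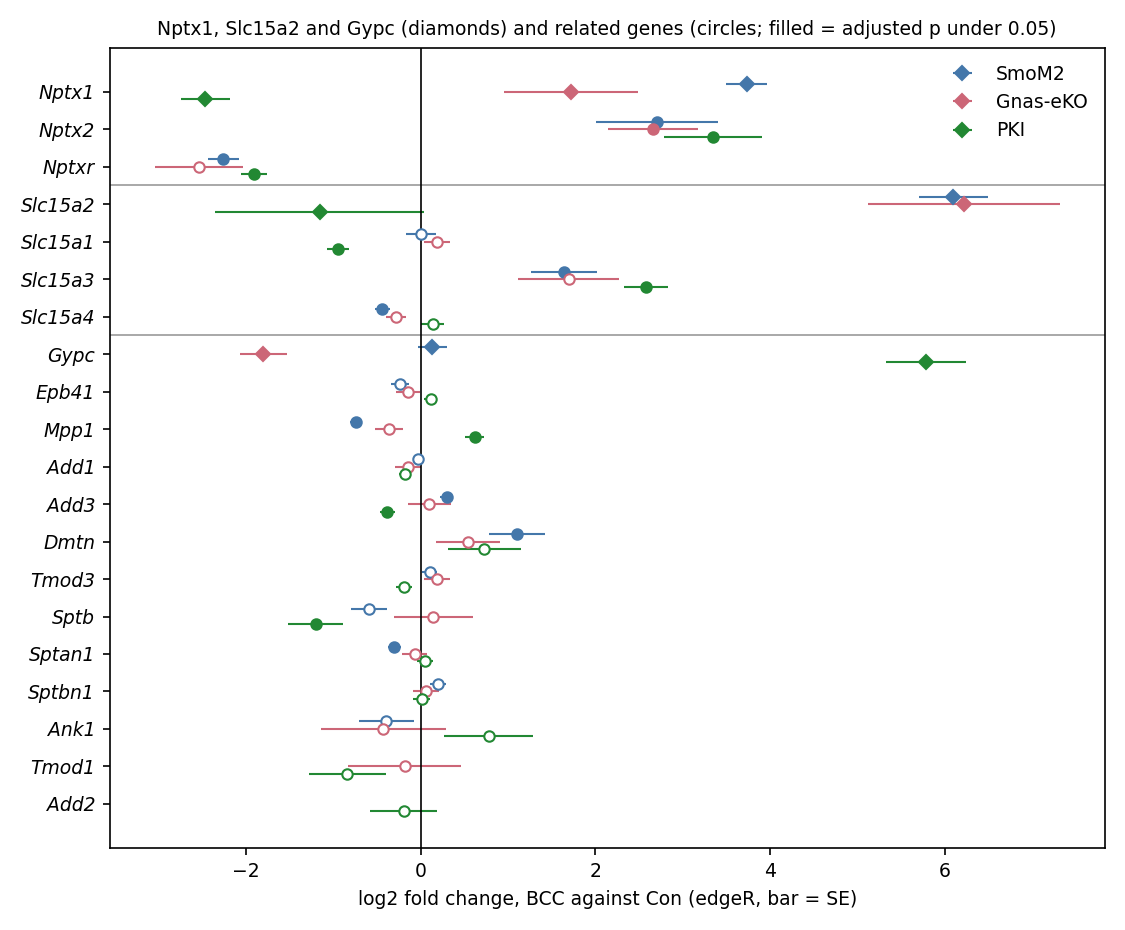
Log2 fold change of BCC against Con (horizontal axis) for Nptx1, Slc15a2 and Gypc (diamonds, no test) and for the tested genes of their families and of the membrane skeleton (circles, filled where the adjusted p is under 0.05), by model, with SE bars. The 3 genes lie on both sides of 0 across models, while Nptx2 is right of 0 and Nptxr left of 0 in all 3 models.

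Markers of other cell types were read beside the 3 genes. Gypc is abundant in red cells, and the summed level of the 6 erythroid markers in the table was 1.98 to 16.3 CPM in SmoM2 Con, 10.3 to 69.99 CPM in SmoM2 BCC, 21.1 to 75.5 CPM in Gnas-eKO Con, 15.1 to 275 CPM in Gnas-eKO BCC, 2.89 to 6.79 CPM in PKI Con and 0.877 to 20.9 CPM in PKI BCC. Among the Con groups, Gnas-eKO was thus highest in both the sum and Gypc, and PKI had a low sum and Gypc near 0. The SmoM2 Con libraries had sums of 1.98, 16.3 and 2.43 CPM beside Gypc at 11.1, 14.3 and 8.82 CPM, so those with sums as low as in PKI Con had Gypc at 8.82 and 11.1 CPM. The library with the highest sum, Gnas-eKO BCC replicate 1, had the lowest Gypc of its group, and the part of red cells in the Gypc levels was not tested. The 8 leukocyte markers in the table summed to 23.5 to 35.2 CPM in PKI Con and 27.0 to 35.6 CPM in SmoM2 Con, and to 69.1 to 93.5 CPM in PKI BCC against 18.0 to 27.2 CPM in SmoM2 BCC, where Gypc levels overlapped. In Gnas-eKO they summed to 33.8 to 38.2 CPM in Con, the group with the highest Gypc, and 21.2 to 46.9 CPM in BCC. In PKI 6 of 7 tested leukocyte markers rose (4 to 6 over left-out libraries), where 18.7% of all genes did, and their part in the higher Gypc, Slc15a3 and Cd86 of PKI BCC was not tested.

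For Nptx1, the 5 neuron and Schwann cell markers reported here summed to 6.13 to 9.52 CPM in SmoM2 BCC, where Nptx1 was highest, and to 21.3 to 32.1 CPM in SmoM2 Con. Of the 3 of them tested there Tubb3, a neuronal tubulin, fell, where 13.5% of all genes did, and without SmoM2 Con replicate 2 or 3 1 other rose. In PKI they summed to 13.2 to 28.7 CPM in Con and 18.2 to 36.5 CPM in BCC, and in Gnas-eKO, without overlap, to 16.5 to 31.2 CPM in Con and 5.35 to 13.4 CPM in BCC, where Nptx1 split. Their part in the Nptx1 levels was not tested. The neuronal marker Rbfox3 had no count in SmoM2 Con or PKI Con. The 6 fibroblast markers summed to 15.8 to 43.5 CPM over all Con libraries, 387 to 525 CPM in SmoM2 BCC, 94.3 to 579 CPM in Gnas-eKO BCC and 84.4 to 145 CPM in PKI BCC. Most of this sum was Dcn, which encodes the matrix protein decorin and went from 21.0 ± 7.95 CPM (SD, n = 3) to 439.6 ± 70.5 CPM (n = 4) in SmoM2, where Col1a1 stood at 1.56 ± 0.351 and 1.97 ± 1.15 CPM and Col3a1 at 2.7 ± 2.96 and 2.53 ± 1.16 CPM. Of the 6 markers 3 rose in PKI, 2 in SmoM2 and 1 in Gnas-eKO, Dcn each time, and none fell, where 18.7%, 16.2% and 1.46% of all genes rose. The count in PKI was 2 to 5 over left-out libraries (5 without Con replicate 1). In Gnas-eKO the Dcn call (adjusted p = 0.0485) held without BCC replicate 2 or 3 and had an adjusted p of 0.0889 to 0.223 without any other library, 0.0510 with RLE size factors and 0.120 with all genes kept, while without BCC replicate 2 5 of the 6 rose. DESeq2 and the fit over 21 libraries also called Dcn there (adjusted p = 4.33e-05 and 0.000683), and in each 5 of the 6 rose. Both call more genes in this model than the main fit, as given below. The part of these markers in the tumour levels of the 3 genes was not tested. The ranges of the fibroblast sum in the 3 Con groups overlapped.

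The 6 melanocyte markers summed to 156 to 204 CPM in PKI Con and, without overlap, to 73.5 to 119.5 CPM in PKI BCC, where Nptx1 was lower than in Con and 3 of 4 libraries were lower in Slc15a2. Of these markers Dct, Tyr, Tyrp1 and Pmel fell in PKI and none rose (3 to 5 fell over left-out libraries), where 15.8% of all genes fell. In SmoM2 Tyr and Mlana fell, where 13.5% of all genes did, with 1 falling without Con replicate 2 and 4 without Con replicate 1, and in Gnas-eKO none passed the test. The sums there overlapped between Con and BCC, at 118 to 208 and 111 to 162 CPM in SmoM2 and 114 to 175 and 120.5 to 201 CPM in Gnas-eKO. The 4 Merkel cell markers summed to 5.53 to 7.09 CPM in PKI Con and 1.65 to 3.29 CPM in PKI BCC, also without overlap. Most of this sum was Krt8, with means of 4.95 CPM in PKI Con and 1.81 CPM in PKI BCC. Krt20 and Atoh1 also had lower means in PKI BCC, and Krt18 a higher one (0.666 against 0.318 CPM). Of the 2 Merkel cell markers tested in PKI 1 fell, where 15.8% of all genes did. The endothelial and muscle markers reached at most 4.75 and 0.774 CPM in any library. The part of melanocytes and Merkel cells in the lower Nptx1 of PKI BCC was not tested.

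Of 13 genes of the count table within 100 kb of the 3 genes, 11 passed the filter, and 1 of them, the non-coding A930037H05Rik 47.4 kb from Nptx1, had PKI Con libraries beyond those of both other models (higher, at 3.18 to 4.23 CPM against 2.23 to 3.15 CPM), where 9.51% of all genes did. Endov and Rptor beside Nptx1, Iqcb1 and Golgb1 near Slc15a2 and Bin1 near Gypc overlapped between PKI Con and each other Con group. Ildr1 near Slc15a2 was lower in all PKI Con than in all Gnas-eKO Con libraries and overlapped with SmoM2 Con. Between BCC and Con, 2 of the 11 rose and 1 fell in SmoM2, none passed the test in Gnas-eKO, and 2 rose and 3 fell in PKI, against 29.7%, 1.63% and 34.5% of all genes called. Iqcb1, a ciliary protein gene, rose in SmoM2 by 0.48 (SE 0.12, adjusted p = 0.0156) and fell in PKI by 0.74 (SE 0.14, adjusted p = 0.00361). Without SmoM2 Con replicate 2 the SmoM2 change of Iqcb1 had an adjusted p of 0.0637. Golgb1, which encodes a Golgi membrane protein, fell in both, by 0.33 (SE 0.10, adjusted p = 0.0395) in SmoM2 and by 0.52 (SE 0.17, adjusted p = 0.0444) in PKI. Of 7 leave-out fits each, 1 kept the Golgb1 call in SmoM2, the one without BCC replicate 2, and 2 kept it in PKI, those without BCC replicate 3 or 4, with an adjusted p of 0.0566 to 0.0975 and 0.0679 to 0.130 in the others. The fit over 21 libraries gave 0.0899 for Golgb1 in SmoM2, and keeping all genes gave 0.0601 in PKI. Ildr1 rose in SmoM2 by 0.67 (SE 0.17, adjusted p = 0.0136), and Endov fell in PKI by 0.47 (SE 0.10, adjusted p = 0.0072). Cd86, a costimulatory protein of antigen-presenting cells, rose in PKI by 3.46 (SE 0.67, adjusted p = 0.00429) from 0.249 ± 0.226 CPM (SD, n = 3) to 2.78 ± 1.17 CPM (n = 4). Bin1 rose in PKI by 1.27 (SE 0.37, adjusted p = 0.0259), which 3 of 7 leave-out fits kept and which had an adjusted p of 0.0510 without BCC replicate 1, 0.0572 without BCC replicate 2, 0.0939 without Con replicate 2 and 0.0838 without Con replicate 3.

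The pattern of each gene over the 21 libraries was compared with that of 12029 genes (12030 for Slc15a2) by Pearson correlation of log2 CPM, as a description over libraries that share batches and groups. Most like Nptx1 were Tmem106c (r = 0.861), Slc25a38 (0.846), the ferritin heavy chain Fth1 (0.84), Scara3 (0.83) and Epb41l3 (0.828). Of these, Scara3 rose in SmoM2 by 1.63 (SE 0.12, adjusted p = 1.35e-05) and fell in PKI (−0.98, SE 0.16, adjusted p = 0.00204). Most like Slc15a2 were Fndc1 (r = 0.794), Zmat3 (0.775), Mllt6 (0.766), Map3k4 (0.759) and Ggps1 (0.755). Fndc1 rose in SmoM2 by 1.60 (SE 0.27, adjusted p = 0.00163) and fell in PKI (−1.20, SE 0.27, adjusted p = 0.00859). Most like Gypc were Cdc42ep2 (r = 0.832), Traip (0.80), Them6 (0.796), Wdr7 (0.755) and Trappc5 (0.752), of which Cdc42ep2, a binding partner of the small GTPase Cdc42, rose in PKI by 2.26 (SE 0.33, adjusted p = 0.00113). These genes were named for their likeness to genes chosen on the same contrasts, so their directions are not independent evidence.

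With the group means removed, other genes led. Most like Nptx1 were then Bpnt1 (r = 0.873), Aplf (0.846), Stk39 (0.84), Fth1 (0.839) and Eml2 (0.835), so that Fth1 was named by both measures. Most like Slc15a2 were Adora2b (0.79), Dcaf8 (0.72), Supt7l (0.713), Sema6a (0.704) and Cradd (0.701), and most like Gypc were Cog4 (0.811), Hmces (0.766), Gss (0.747), Hip1 (0.718) and Krt33a (0.697). Among themselves the 3 genes correlated at 0.458 for Nptx1 with Slc15a2, −0.261 for Nptx1 with Gypc and −0.563 for Slc15a2 with Gypc over the 21 libraries. Within groups the values were −0.147, 0.234 and −0.299.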

How the data were processed

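RNA from tail keratinocytes of 21 samples was sequenced from a stranded mRNA preparation, per the labels' protocols. Per the submitters' processing notes the tools were bcl2fastq 2.20, cutadapt 1.18, STAR 2.7.0f and Partek, with build mm10, and their settings and the strand setting of counting are not given in the sources used here. The authors deposited estimated counts per gene, of which 33.1% are not whole, and a table of normalized values, a signal that they name TMM and that equals each count times 1 factor per library plus a small constant. It served only as an alternative. Counts were rounded, filtered with filterByExpr, scaled by TMM and tested with edgeR 4.0.16 (R 4.3.3) quasi-likelihood fits within each model and of the differences of effects between models, with Benjamini-Hochberg adjustment over all genes tested and a threshold of 0.05. No gene of the table sums to under 10 counts. Log2 CPM used 2 added counts, and fitted fold changes a prior count of 0.125. Alternatives were DESeq2 1.42.0, RLE factors, no filter, a joint fit, a replicate block, other prior counts and each library left out. The test was run on simulated data first. The genes, lists, markers and rules were chosen with earlier results of these data known: for each list up to 3 called genes per direction and model were to be named, and for each gene the 5 most alike. Some listed genes are not reported here. Neighbours within 100 kb were named after their values were seen. No pair of libraries in a group agreed within counting noise (chi-square per degree of freedom at least 8.66). Intervals and floors cover counting error only.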

Additional observations from a re-analysis of the deposited data

Results flagged for a closer look

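In groups of 4 libraries, a library was singled out where its gap to the nearest other one, as a share of the group's range, exceeded the critical value of Dixon's test at 95%. Over 19 genes and 57 groups 6 were, and chance alone gives about 1 in 20. Among the 3 genes these were PKI BCC replicate 4 for Nptx1 (1.48 CPM against 3.47 to 3.82 CPM, gap 0.851 of the range), SmoM2 BCC replicate 2 for Slc15a2 (15.0 CPM against 9.27 to 10.1 CPM, 0.857) and Gnas-eKO BCC replicate 1 for Gypc (3.28 CPM against 7.12 to 7.72 CPM, 0.864). The last is also the library with the highest erythroid marker sum, 275 CPM. Among the related genes they were Slc15a3 in Gnas-eKO BCC (0.872), Dmtn in PKI BCC (0.838) and Sptan1 in Gnas-eKO BCC (0.927).

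For 2 of the 3 genes every BCC library lay on the opposite side of its controls in 2 models, a difference not tested here because the genes were chosen for it. As differences of mean log2 CPM effects these were −6.16 for Nptx1 in PKI against SmoM2 and 7.47 for Gypc in PKI against Gnas-eKO. The share of all genes with opposite sides in 2 models was not computed, so the count of 2 among 3 genes cannot be called unusual. A lack of overlap within a single model was common, at 19% to 41.3% of 17695 genes depending on the model. The differences of effects that passed the edgeR test among the related genes were, for PKI against SmoM2, −0.95 for Slc15a1, 0.58 for Slc15a4, 0.41 for Cndp2, 1.69 for Dpep2, 1.23 for Slc9a3r1, 1.36 for Mpp1, −0.68 for Add3 and 0.35 for Sptan1. For PKI against Gnas-eKO they were −1.13 for Slc15a1, 1.83 for Dpep2, 0.86 for Slc9a3r1 and 0.98 for Mpp1. Leaving out single libraries ended the calls of Cndp2 and Sptan1 against SmoM2 in most fits (3 and 5 of 14 kept them), and those of Dpep2 and Slc9a3r1 against Gnas-eKO in some (9 and 7 of 14 kept them). Fitted over 21 libraries, the calls against SmoM2 of Add3, Cndp2 and Sptan1 had an adjusted p of 0.0586, 0.0936 and 0.106. Keeping all genes gave 0.0517 for Cndp2.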

How the results depend on the processing

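The direction of the Nptx1 and Slc15a2 differences within each model, and of the Gypc differences in Gnas-eKO and PKI, held in every alternative run. Gypc in SmoM2 turned from 0.13 to −0.0229 without Con replicate 3, within a range of −0.0229 to 0.33 over left-out libraries. The small difference of Slc15a2 effects between Gnas-eKO and SmoM2, 0.13, turned to −0.37 without Gnas-eKO BCC replicate 1, −0.14 without replicate 4, −0.40 without Gnas-eKO Con replicate 2 and −0.49 without SmoM2 Con replicate 2, within a range of −0.49 to 1.06. Over left-out libraries Gypc ranged from 5.27 to 6.63 in PKI, from 7.08 to 8.44 for PKI against Gnas-eKO and from 5.14 to 6.51 for PKI against SmoM2. On the authors' normalized values, which add a far smaller constant to low counts than the fit does, Gypc gave 8.11, 9.99 and 7.95 in these 3 comparisons, and Slc15a2 gave 7.96 in Gnas-eKO, −10.55 for PKI against Gnas-eKO and −8.98 for PKI against SmoM2. These sizes rest on control libraries with 0 to 8 counts, which is what depth limits here.

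The count of called genes moved most in Gnas-eKO, where 267 became 1535 with DESeq2, 2644 when 21 libraries were fitted jointly, and 0 to 1910 over left-out libraries (1910 without BCC replicate 2). Gnas-eKO against SmoM2 went from 30 to 212 with DESeq2, 66 in the joint fit and 14 to 79 over left-out libraries, and PKI against Gnas-eKO from 1564 to 2389 with DESeq2 and 673 to 2512 over left-out libraries. The cause was not tested. The count of shared genes among the 5 most alike was 1, 2 and 0 for Nptx1, Slc15a2 and Gypc under Spearman correlation.

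Replicate numbers showed no clear pairing of the libraries. Same-numbered deviations had a mean correlation of −0.0963 (SmoM2), 0.0853 (Gnas-eKO) and 0.111 (PKI), and at most 0.242. Fitting the number as a replicate block gave 135 calls in Gnas-eKO (105 shared with the 267), 925 for PKI against Gnas-eKO (790 shared with the 1564), 3428 in SmoM2 and 5988 in PKI. Among the list genes and neighbours, Nptx2, Gria2, Nod1, Add3, Dmtn, Sptan1, Iqcb1, Ildr1 and Golgb1 in SmoM2, Nptx2 in Gnas-eKO, Pdzk1 in PKI, Mpp1 and Slc9a3r1 for PKI against Gnas-eKO and Sptan1 for PKI against SmoM2 were not called in that fit, with an adjusted p of 0.0522 to 0.109, and 0.13 for Nptx2 in Gnas-eKO. In Gnas-eKO the marker Dcn was not called in the block fit either (0.282), while it was called in SmoM2 (0.00745) and PKI (0.0361). Of the melanocyte markers 1 fell in SmoM2 in that fit, in place of 2. In SmoM2 0 of 6 numbered libraries correlated best with their own number, against 4 of 6 in Gnas-eKO and 4 of 6 in PKI. A pairing in Gnas-eKO and PKI is therefore not excluded. In the block fit Nptx1 stood at 0.70 in Gnas-eKO, −2.94 for Gnas-eKO against SmoM2 and −2.95 for PKI against Gnas-eKO. Slc15a2 stood at −3.02 in PKI, −0.35 for Gnas-eKO against SmoM2, −9.12 for PKI against Gnas-eKO and −9.35 for PKI against SmoM2. BCC replicate 4 of each model has no partner in Con, so it adds nothing to the difference in that fit.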
